A study of Mus musculus with 8 samples.

Results

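The genes described here are 8 feedback regulators, effectors and targets of TGF-beta signalling, namely Pmepa1, Smad7, Skil, Ski, Tgif1, Smad3, Tgfb1i1 and Tgfbi. They were chosen by name for their place in the pathway, with earlier results of these data known. They are 8 of the 11447 gene identifiers in the deposited tables. TGF-beta binds a receptor pair whose second subunit, the product of Tgfbr2, activates the first. The active receptor phosphorylates Smad2 and Smad3, which enter the nucleus with Smad4 and switch on matrix and contractile genes together with the pathway's own inhibitors. In the aortic wall this pathway is known for its part in elastic fibre formation, in the contractile state of smooth muscle and in aneurysm.

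Mouse ascending aorta was digested, cells positive for GFP were sorted to obtain smooth muscle, and their RNA was counted with the 10x Genomics Chromium system, which tags each captured molecule with a unique molecular identifier (UMI). One set of 4 libraries came from mice with the genotype label TGFBetaRiSMC-Apoe, described as a smooth muscle knockout of Tgfbr2 on an Apoe-deficient background (called KO here), and the other set of 4 from Apoe-/- mice (called Apoe), so both genotypes lacked Apoe. Within each genotype the libraries were from mice on the diet labelled ND and on high fat diet (HFD) lasting 1, 2 or 4 months (called 1M, 2M and 4M), with 1 library for each genotype and diet. The sources used here give neither the age of the mice, nor the promoter that drove the knockout, nor the number of mice in a library.

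The KO libraries held 1127 to 2253 cells and 11977077 to 18301826 UMIs, and the Apoe libraries held 1235 to 2659 cells and 9407155 to 19719335 UMIs. The median cell had 7631 to 10988 UMIs in KO and 6966 to 9392 in Apoe, and any pair of libraries shared at most 9 cell barcodes. No library of either genotype has a value for Tgfbr2, which the submitters' file names say was taken out. The knockout thus could not be checked from its own gene. The smooth muscle label was checked from 9 contractile genes, all listed in every library, whose UMIs summed to 1754 per 1000000 in KO 4M and 26240 to 50054 in the other 7 libraries. KO 4M thus stood apart, and results are given without the 4M libraries where they differ. KO 1M held 36 cells with UMIs of at least 3 markers of lymphocytes, Schwann cells, macrophages or endothelium. The markers listed in KO 1M were 5 of macrophages and 1 of endothelium, with 0 of lymphocytes and 0 of Schwann cells. The other libraries list at most 2 of these markers each, so no cell there could reach 3, and cells of other types were not counted in them.

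Levels below are in CPM, the UMIs of a gene per 1000000 UMIs of the library, and their 95% intervals, like all intervals here, cover counting error only. A gene seen in under 5% of the cells of a library is listed at 0 there, and no fold is given against such a listing. Of the 8 genes, 7 were listed in all 8 libraries and Tgfbi in KO 4M alone. The genotypes were compared over the 4 diets with limma on the mean over cells of the deposited log2 value in each library, so that an effect is a difference of mean log2 values and not a fold. Each of the 4 diets served as a block, and p-values were adjusted by the Benjamini-Hochberg method over 9253 genes.

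Pmepa1, Skil, Smad7 and Ski, all feedback inhibitors of the pathway, had lower levels in KO on every diet, and Pmepa1 was the one that passed the test over 4 diets. Pmepa1 (ENSMUSG00000038400, chromosome 2, 173224458 to 173276533, minus strand, GRCm38) encodes a membrane protein that binds receptor-activated Smads and dampens the signal, and it is a target of the pathway itself. Its level was 49.8, 84.3, 60.3 and 39.9 CPM in KO on ND, 1M, 2M and 4M, against 472, 454, 457 and 631 in Apoe. The highest KO library lay far below the lowest Apoe library. The mean log2 value fell by 1.74 ± 0.08 (SE, 4 diets), with an adjusted p of 0.0209 (limma). In all, 12 of 9253 genes fell in this comparison, which is 0.13% of those tested, 2 rose, which is 0.0216%, and 14.0% had an unadjusted p under 0.05. On single diets the level of Pmepa1 was lower in KO by 9.48-fold on ND, 5.38-fold at 1M, 7.58-fold at 2M and 15.8-fold at 4M.

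The call of Pmepa1 was lost without the ND, 1M or 2M libraries (adjusted p = 0.216, 0.266 and 0.187, limma) and on log2(CPM + 1) (0.124), while its effect kept its sign in all of these. With the 4M libraries left out the adjusted p was 0.0230 (limma), in a fit in which 150 genes fell (1.62% of those tested), 90 rose (0.973%) and 28.7% had an unadjusted p under 0.05.

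Skil (ENSMUSG00000027660, chromosome 3, 31095058 to 31122577, plus strand) encodes SnoN, a corepressor that Smad signalling first degrades and then induces. Its level was 102, 162, 129 and 104 CPM in KO from ND to 4M, against 337, 322, 369.6 and 204 in Apoe. The genotypes did not overlap, and the nearest values were KO 1M and Apoe 4M. Over 4 diets the mean log2 value differed by -0.68 ± 0.12 (SE; adjusted p = 0.160, limma), which missed the threshold. Without the 4M libraries, Skil fell by 0.81 and passed (adjusted p = 0.0348, limma). Over the diets left out in turn its effect ran from -0.81 to -0.60, and its adjusted p reached 0.621 (limma). The level on single diets was lower in KO by 3.29-fold on ND, 1.996-fold at 1M, 2.86-fold at 2M and 1.96-fold at 4M.

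Smad7 (ENSMUSG00000025880, chromosome 18, 75367529 to 75395935, plus strand) encodes the inhibitory Smad that blocks the receptor and recruits ubiquitin ligases to it. Its level was 167, 236, 186 and 102 CPM in KO from ND to 4M, against 299, 304, 327 and 224 in Apoe. Each KO library was below the Apoe library of its diet, but KO 1M was above Apoe 4M, so the genotypes overlapped. In mean log2 value Smad7 differed by -0.40 ± 0.05 (SE, 4 diets; adjusted p = 0.119, limma). The level of Smad7 was lower in KO by 1.79-fold on ND, 1.29-fold at 1M, 1.75-fold at 2M and 2.19-fold at 4M.

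Ski (ENSMUSG00000029050, chromosome 4, 155154075 to 155222592, minus strand) encodes the corepressor that binds Smad complexes on DNA, a relative of SnoN. Its level was 102, 99.4, 76.1 and 51.5 CPM in KO from ND to 4M, against 129, 136, 136 and 127 in Apoe. The genotypes did not overlap, and the gap was widest at 4M. In mean log2 value Ski differed by -0.23 ± 0.04 (SE, 4 diets; adjusted p = 0.164, limma). The level of Ski was lower in KO by 1.26-fold on ND and 2.47-fold at 4M, with 1.37-fold at 1M and 1.78-fold at 2M between them. No single diet was tested, since each had 1 library for each genotype. The change of Ski with months, compared between genotypes below, did not pass the threshold (adjusted p = 0.287, limma).

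Pmepa1, Skil and Ski were thus the members whose 4 KO levels were all below the 4 Apoe levels. Over the genes listed in all 8 libraries, 6.91% did the same (552 of 7994), and 2.55% had all KO levels above all Apoe levels, as none of the members did.

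**Figure D1:**
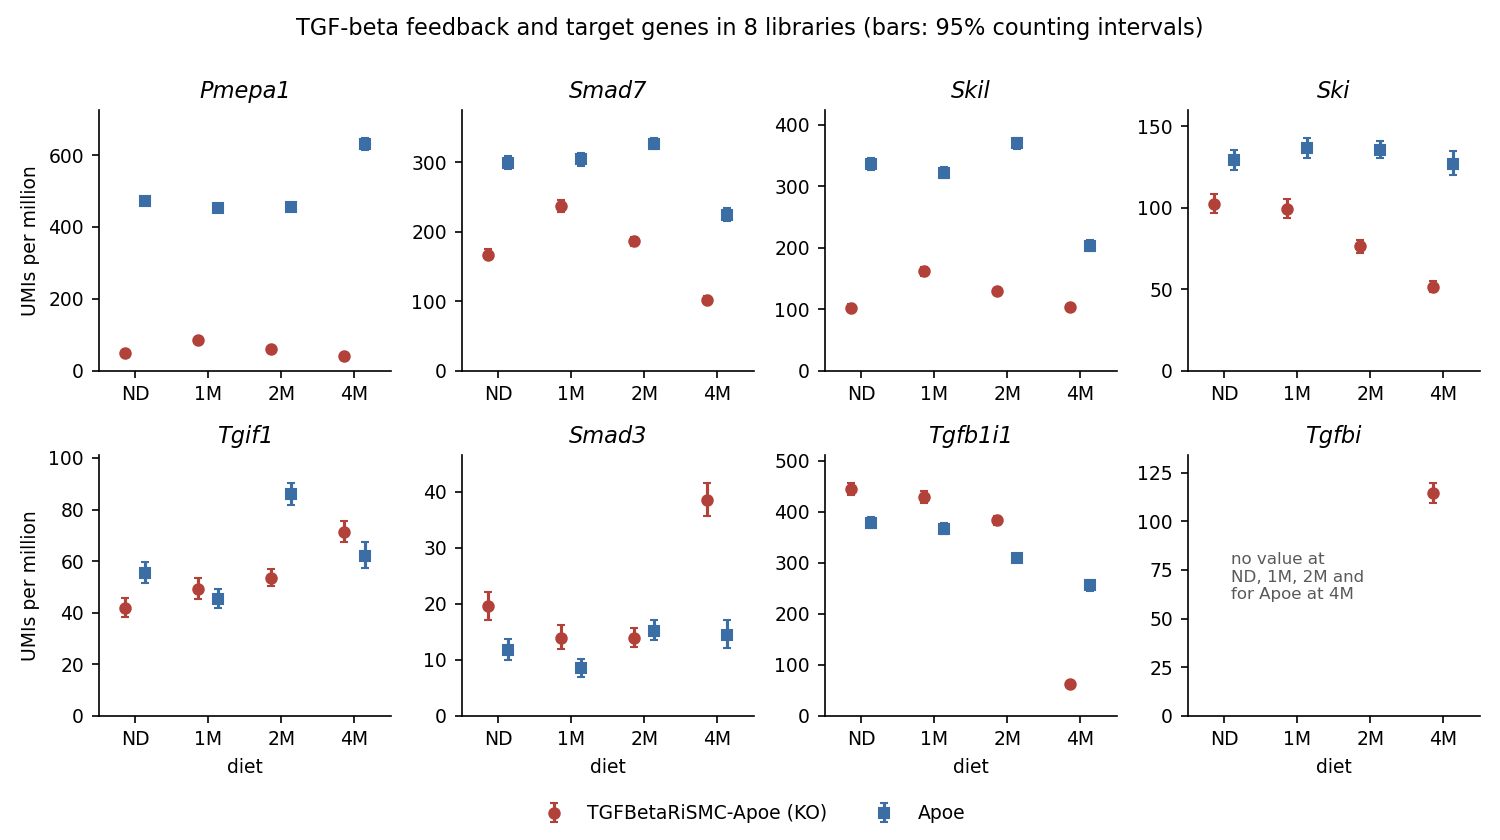
CPM of the 8 genes (vertical axes, linear, from 0) by diet (horizontal axes); circles are KO and squares Apoe libraries, with 95% counting intervals. For Pmepa1, Skil and Ski all KO levels lie below all Apoe levels, and Smad7 is lower in KO on every diet but overlaps across diets. Tgfb1i1 is low in KO 4M alone, and Tgfbi has a value in KO 4M alone.

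The remaining genes showed no common direction. Tgif1 (ENSMUSG00000047407, chromosome 17, 70844205 to 70853546, minus strand) encodes a homeodomain corepressor of Smad2 and Smad3. Its level was 42.0, 49.3, 53.6 and 71.4 CPM in KO from ND to 4M, against 55.5, 45.4, 86.0 and 62.1 in Apoe, and the genotypes overlapped widely. Its mean log2 value differed by -0.00 ± 0.07 (SE, 4 diets; adjusted p = 0.989, limma).

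Smad3 (ENSMUSG00000032402, chromosome 9, 63646767 to 63757994, minus strand) encodes the transcription factor that the active receptor phosphorylates. Its level was 19.5, 13.9, 13.9 and 38.5 CPM in KO from ND to 4M, against 11.7, 8.46, 15.2 and 14.5 in Apoe. KO 4M was the highest and KO ND next, while KO 1M and KO 2M lay within the Apoe range. Smad3 differed in mean log2 value by 0.09 ± 0.05 (SE, 4 diets; adjusted p = 0.493, limma).

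Tgfb1i1 (ENSMUSG00000030782, chromosome 7, 128246812 to 128255699, plus strand) encodes Hic-5, a focal adhesion protein that TGF-beta induces and that smooth muscle expresses. Its level was 444, 429.6, 383 and 62.0 CPM in KO from ND to 4M, against 378, 367, 309 and 256 in Apoe. The KO libraries were the higher ones of their pair on ND, 1M and 2M, and KO 4M was the lowest of all 8. Over 4 diets its mean log2 value differed by -0.04 ± 0.21 (SE; adjusted p = 0.938, limma), and without the 4M libraries by 0.21 (adjusted p = 0.0708, limma).

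Tgfbi (ENSMUSG00000035493, chromosome 13, 56609523 to 56639562, plus strand) encodes a secreted matrix protein named for its induction by TGF-beta. It had 114 CPM in KO 4M (95% interval 109.6 to 119), where 41.3% of cells had a UMI, and was listed at 0 in Apoe 4M. The tables of the other 3 diets have no column for it. Since Tgfbi passed the filter on low values only through KO 4M, no result of its fits is given.

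RefSeq promoter windows on GRCm38.p6 were used for 4 of the 8 genes (Ski, Smad3, Tgfbi and Tgif1, the last with 5 start sites). None was used for Pmepa1, Skil, Smad7 and Tgfb1i1, which does not mean that these genes have no RefSeq window. The 250 bases before each start were searched on both strands for GTCTAGAC (the Smad-binding palindrome), CAGACA (the core of the CAGA box that Smad3 and Smad4 bind), CTGTCA (the core bound by TGIF1) and TGANTCA (the AP-1 site). Of the 32851 RefSeq windows searched, 0.167%, 17.1%, 15.9% and 6.75% held these motifs. A pair of Tgif1 windows held CAGACA or its reverse complement once each, at -201 and -60 from the start, and the windows of Ski, Smad3 and Tgfbi held none of the 4. These are matches of letters, not sites, and the lack of a match says only that these letters are not in the window. They are shown because Ski was lower in KO on all diets, Smad3 and Tgfbi were high in KO 4M, and Tgif1 carries the matches, set in capitals. Bases that GENCODE vM21 places in an exon of the gene are left off, and each runs 5′ to 3′ on the gene's strand.
Ski, chr4:155222593-155222785, minus strand: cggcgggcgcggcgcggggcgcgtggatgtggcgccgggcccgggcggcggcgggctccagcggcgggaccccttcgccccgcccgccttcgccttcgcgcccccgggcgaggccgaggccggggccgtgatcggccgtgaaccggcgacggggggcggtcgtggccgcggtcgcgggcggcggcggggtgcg
Smad3, chr9:63757995-63758244, minus strand: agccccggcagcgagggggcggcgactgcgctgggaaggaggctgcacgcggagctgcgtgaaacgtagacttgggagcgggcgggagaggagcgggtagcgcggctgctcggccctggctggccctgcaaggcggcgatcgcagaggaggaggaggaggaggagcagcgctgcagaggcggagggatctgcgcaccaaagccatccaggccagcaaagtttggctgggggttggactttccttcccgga
Tgfbi, chr13:56609336-56609522, plus strand: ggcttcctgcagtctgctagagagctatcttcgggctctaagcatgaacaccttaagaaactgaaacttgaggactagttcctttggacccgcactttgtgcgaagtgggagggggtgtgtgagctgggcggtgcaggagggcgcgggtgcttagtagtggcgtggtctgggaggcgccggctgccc
Tgif1, chr17:70853547-70853782, minus strand: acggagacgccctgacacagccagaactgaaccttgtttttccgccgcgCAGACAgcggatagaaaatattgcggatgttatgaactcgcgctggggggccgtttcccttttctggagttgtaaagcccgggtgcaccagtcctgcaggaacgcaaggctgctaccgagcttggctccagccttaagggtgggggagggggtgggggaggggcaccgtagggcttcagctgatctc
Tgif1, chr17:70851735-70851984, minus strand: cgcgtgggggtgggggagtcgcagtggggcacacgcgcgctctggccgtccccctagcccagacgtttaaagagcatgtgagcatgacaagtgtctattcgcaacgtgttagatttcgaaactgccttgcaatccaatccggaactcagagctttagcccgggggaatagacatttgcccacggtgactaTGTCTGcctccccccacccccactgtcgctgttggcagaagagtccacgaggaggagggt

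On single diets, levels can be set side by side with counting error but no test, and a log2 ratio past 1 in size was counted. The median log2 ratio of KO over Apoe across all genes was -0.05, 0.02 and -0.03 on ND, 1M and 2M, and -0.25 at 4M. On ND, Pmepa1 and Skil were past a log2 ratio of -1, as were 1.56% of genes listed in both libraries, while 0.864% were past 1. At 1M it was Pmepa1 alone, against 0.899% of genes (0.866% past 1), with Skil just inside at -0.997. At 2M it was again Pmepa1 and Skil, against 2.5% of genes (1.31% past 1).

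At 4M, Pmepa1, Smad7, Ski and Tgfb1i1 were past -1, but so were 18.2% of all genes. Smad3 was past 1 in the other direction, with 7.0% of genes. Taken relative to the median gene at 4M, the log2 ratios were -3.74 for Pmepa1, -1.80 for Tgfb1i1, -1.06 for Ski, -0.89 for Smad7, -0.72 for Skil, 0.45 for Tgif1 and 1.66 for Smad3. Among all genes of the 4M pair, 0.429% had a lower ratio than Pmepa1, while 15.4% were below Smad7 and 19.0% below Skil. On ND the shares of genes with a lower ratio were 0.0312% for Pmepa1, 0.375% for Skil and 2.64% for Smad7.

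**Figure D2:**
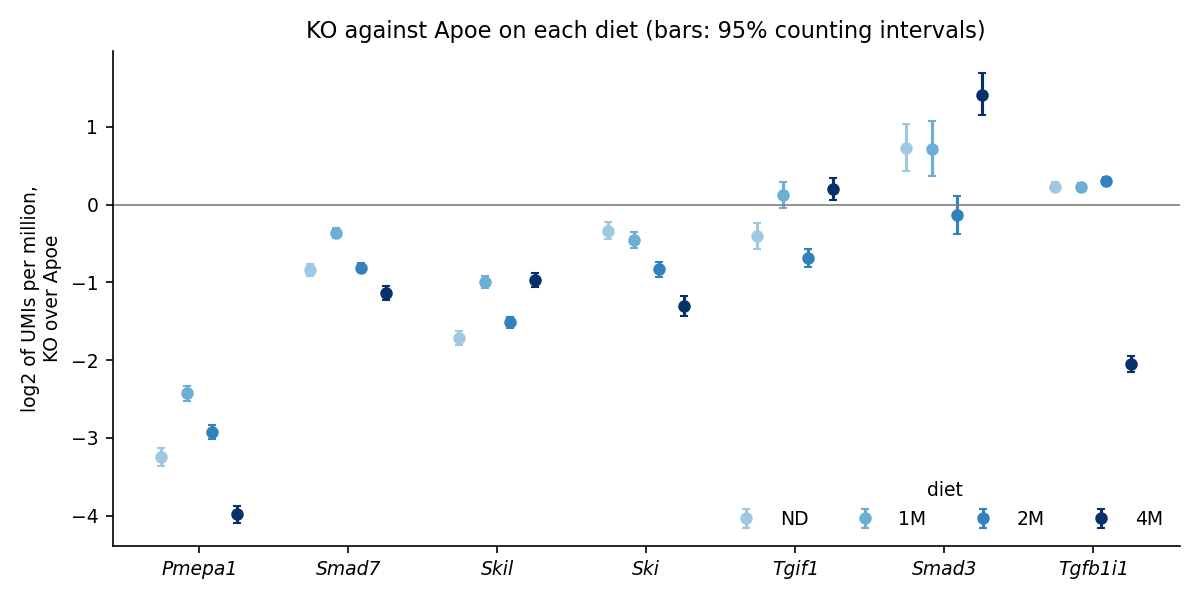
log2 ratio of CPM, KO over Apoe (vertical axis), for the 7 genes with a value in all libraries (horizontal axis), with 1 point for each diet and 95% counting intervals. Pmepa1, Smad7, Skil and Ski lie below 0 on all 4 diets, and Tgfb1i1 lies above 0 on ND, 1M and 2M and at -2.04 at 4M.

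The levels were also followed cell by cell. A Pmepa1 UMI was found in 32.9%, 34.4%, 26.01% and 27.1% of KO cells from ND to 4M, against 95.4%, 94.7%, 89.9% and 94.7% of Apoe cells. With each cell thinned to 2900 UMIs the shares were 12.0%, 16.3%, 12.3% and 10.4% in KO, against 70.9%, 69.9%, 68.8% and 78.1% in Apoe. The genotypes were thus apart at equal depth too. No cell type known to lack Pmepa1 was measured apart from the rest, so the part of free RNA in these shares was not tested.

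The median KO cell had 0 Pmepa1 UMIs in each of the 4 libraries, and cells with 5 or more, a number chosen after the values were seen, were 1.06%, 2.84%, 1.55% and 0.951% of KO cells from ND to 4M. In Apoe such cells were 40.5%, 39.6%, 26.5% and 41.9%. In KO 1M these few cells carried 35.9% of the Pmepa1 UMIs of the library and in KO 2M 27.3%, against 14.3% in KO ND and 15.3% in KO 4M.

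For Skil the thinned shares of cells were 22.8%, 30.9%, 26.1% and 23.6% in KO from ND to 4M, against 53.0%, 51.2%, 56.4% and 39.3% in Apoe. For Smad7 they were 33.7%, 42.3%, 37.6% and 23.9% in KO, against 51.8%, 51.2%, 54.2% and 41.5% in Apoe. At equal depth KO 1M and Apoe 4M overlapped for Smad7, and no KO library reached an Apoe library for Skil. The unthinned shares were 46.7% to 55.2% in KO against 63.3% to 82.4% in Apoe for Skil, and 53.8% to 68.1% against 65.3% to 80.5% for Smad7.

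**Figure D3:**
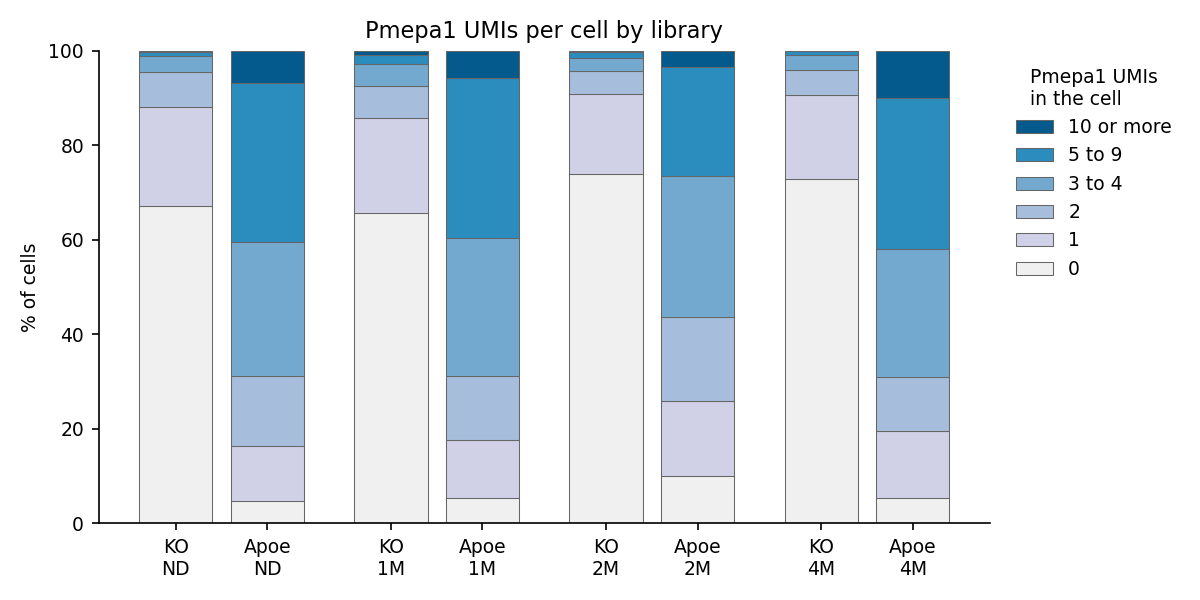
Percent of cells (vertical axis) with 0, 1, 2, 3 to 4, 5 to 9 or 10 or more Pmepa1 UMIs, stacked, in each library (horizontal axis, KO left of Apoe for each diet). Cells with no Pmepa1 UMI are 65.6% to 73.99% of each KO library.

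Months of diet were followed in the time-course tables, where diet and elapsed time cannot be told apart. Within KO, Tgfb1i1 fell by 0.42 ± 0.06 in mean log2 value per month (SE; adjusted p = 0.0196, limma) and Ski by 0.08 ± 0.02 (adjusted p = 0.0360, limma). These are 2 of the 7 genes, in a comparison in which 15.7% of all genes fell, 6.8% rose and 43.3% had an unadjusted p under 0.05. Without the 4M libraries both calls were lost (adjusted p = 0.202 for Tgfb1i1 and 0.179 for Ski, limma), with slopes of -0.19 and -0.14. Without the ND or the 1M libraries they were lost too (0.0774 and 0.190 for Tgfb1i1, 0.180 and 0.215 for Ski, limma).

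Within Apoe, Tgfb1i1 had a slope of -0.16 ± 0.06 (SE; adjusted p = 0.373, limma), and 0 genes of any kind passed (limma; 1165 at an unadjusted p under 0.05, or 12.6%, and 3 by limma-voom). The difference of the slopes, KO minus Apoe, was -0.27 ± 0.08 for Tgfb1i1, 0.14 ± 0.05 for Skil and -0.05 ± 0.02 for Ski (adjusted p = 0.226, 0.228 and 0.287, limma), and 0 genes passed (limma, 0 by limma-voom; 1954 at an unadjusted p under 0.05, or 21.1%). So no change with time was shown to differ between genotypes. In a slope common to both genotypes, where 5.4% of genes fell, 0.151% rose and 28.4% had an unadjusted p under 0.05, Tgfb1i1, Smad7 and Ski came nearest, at -0.29 ± 0.07, -0.09 ± 0.02 and -0.06 ± 0.02 (SE; adjusted p = 0.0558, 0.0721 and 0.0721, limma).

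Cartilage genes summed to 34529.9 CPM in KO 4M, against 4384 in Apoe 4M, so the 4M libraries were also split by cell. A cell was called cartilage-leaning where it had more UMIs of 10 cartilage genes (Col2a1, Acan, Sox9 and others) than of the 9 contractile genes (Acta2, Myh11, Tagln and others), and contractile-leaning in the opposite case. None of the 8 genes is on either list. By this rule KO 4M had 1484 cartilage-leaning and 93 contractile-leaning cells, and Apoe 4M had 112 and 1118. These are ranges of a score and not cell types. Asking for 2 times the UMIs left 1467 and 82 cells in KO 4M, and 93 and 1099 in Apoe 4M.

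The classes were not alike across genotypes, and their cartilage values rest on 10 listed genes in KO 4M and 7 in Apoe 4M. Cartilage genes took a median of 2.83% of UMIs in the cartilage-leaning cells of KO 4M against 0.979% in those of Apoe 4M. In contractile-leaning cells they took 0.405% in KO 4M against 0.0196% in Apoe 4M. Contractile genes took 0.0307% of UMIs in cartilage-leaning cells of KO 4M against 0.101% in those of Apoe 4M, and 3.51% against 3.24% in contractile-leaning cells.

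Tgfb1i1, which smooth muscle expresses, had lower levels in cartilage-leaning than in contractile-leaning cells of both 4M libraries. The part of cell class in its low level in KO 4M was not tested. In cartilage-leaning cells Tgfb1i1 had 52.4 CPM in KO 4M (95% interval 49.0 to 55.9) against 61.1 in Apoe 4M (47.9 to 76.9). In contractile-leaning cells it had 291 in KO 4M (253 to 332) against 285 in Apoe 4M (273 to 296). The log2 ratio of KO over Apoe within a class was -0.22 (-0.57 to 0.14) and 0.03 (-0.18 to 0.23), each with an interval that spans 0, against -2.04 between the whole libraries. In the 60 cartilage-leaning cells of KO 2M, Tgfb1i1 had 72.9 CPM, against 399.5 in the 2192 contractile-leaning cells of that library.

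Pmepa1 was low in KO in both classes. It had 38.5 CPM in cartilage-leaning cells of KO 4M against 565 in those of Apoe 4M, which is 14.7-fold lower. In contractile-leaning cells it had 73.3 in KO 4M against 639.9 in Apoe 4M, which is 8.72-fold lower. Within KO 4M it was also lower in cartilage-leaning cells (35.6 to 41.5) than in contractile-leaning cells (55.1 to 95.7, from 54 UMIs), with intervals that do not overlap. KO 2M did not show this order. There Pmepa1 had 71.8 CPM in cartilage-leaning (55.5 to 91.3) and 59.7 in contractile-leaning cells (56.1 to 63.4). Skil, Ski and Smad7 were also lower in KO 4M in either class, with log2 ratios of -1.10, -0.99 and -0.94 in cartilage-leaning cells and of -0.74, -0.81 and -0.59 in contractile-leaning cells. None of these intervals spans 0. Ratios within a class were not computed for all genes, so how common such values are there is not known. Between the whole 4M libraries the median log2 ratio was -0.25, with 18.2% of genes past -1 and 7.0% past 1.

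Smad3 was higher in KO 4M in both classes, with 39.0 against 18.4 CPM in cartilage-leaning cells and 27.2 against 13.9 in contractile-leaning cells. Tgif1 had 71.8 CPM in cartilage-leaning and 62.5 in contractile-leaning cells of KO 4M, against 138 and 50.7 in those of Apoe 4M. In KO 2M the same classes had 101 and 51.1. Tgfbi was carried mostly by the cartilage-leaning cells of KO 4M, at 118 CPM (113 to 123), against 23.1 (13.5 to 37.0) in its contractile-leaning cells. With 1 library for each genotype at 4M, none of these class values has a test.

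**Figure D4:**
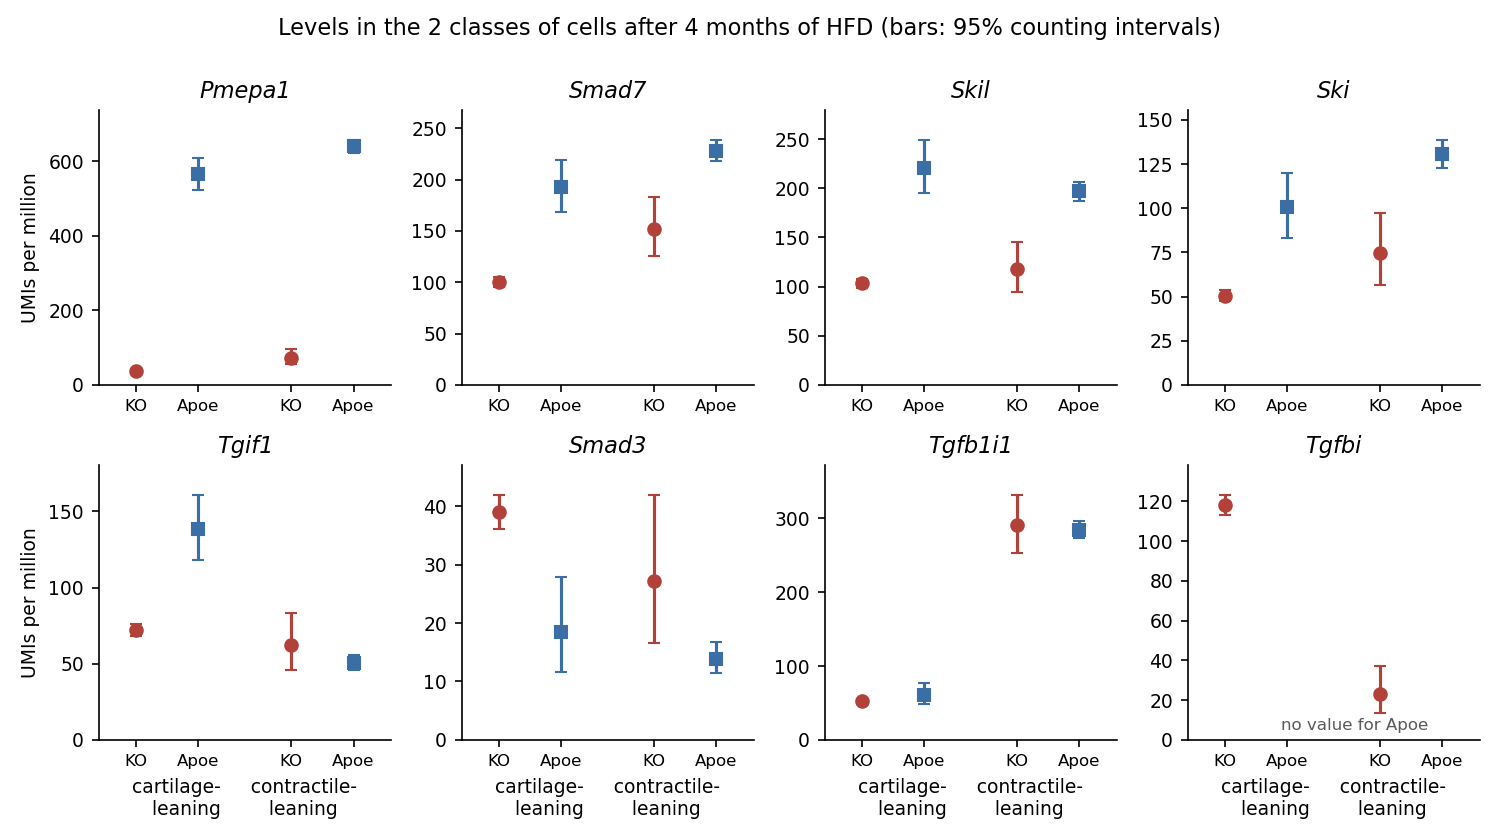
CPM (vertical axes, linear, from 0) of the 8 genes in cartilage-leaning and contractile-leaning cells of KO 4M (circles) and Apoe 4M (squares), with 95% counting intervals. Tgfb1i1 is low in cartilage-leaning cells of both genotypes, Pmepa1 is lower in KO in both classes, and Tgfbi has no value in Apoe.

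Other genes of the pathway were read from 2 lists. In the list of 28 receptors, Smads and regulators, 25 were tested, of which 0 rose and 0 fell between genotypes over 4 diets (limma; 4 at an unadjusted p under 0.05, and 1 by limma-voom), against 14.0% of all genes at an unadjusted p under 0.05. Its median effect was -0.01, against 0.01 over all genes tested. The 3 largest in size were the receptor Tgfbr1 with -0.29 ± 0.04, the adaptor Dab2 with 0.23 ± 0.15 and the inhibitor Ldlrad4, a relative of Pmepa1, with -0.22 ± 0.02 (SE, 4 diets; adjusted p = 0.142, 0.561 and 0.1004, limma). Ldlrad4 had 9.89, 12.3, 14.5 and 9.78 CPM in KO from ND to 4M, against 37.3, 42.1, 48.7 and 36.2 in Apoe, without overlap. Tgfbr1 had 60.5, 65.9, 57.7 and 20.7 in KO against 98.2, 106, 116 and 94.5 in Apoe, also without overlap. Among all genes listed in all 8 libraries, 6.91% had every KO level below every Apoe level, and these genes were named for their large effects.

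Within KO, 7 of these 25 fell with months (the receptor Tgfbr1, the inhibitory Smad6, the ubiquitin ligases Smurf1 and Smurf2, the phosphatase Ppm1a, the deubiquitinase Usp15 and the receptor-binding Fkbp1a) and Dab2 rose (limma), against 15.7% and 6.8% of all genes. This slope had 0 calls of any kind without the ND, 1M or 4M libraries (limma; 3144, 1974 and 1890 at an unadjusted p under 0.05). Dab2 had 11.6, 16.6, 23.0 and 124 CPM in KO from ND to 4M, against 10.03, 7.95, 11.4 and 25.3 in Apoe. In the common slope Smad6, the pseudoreceptor Bambi and Usp15 fell, against 5.4% of all genes. That slope had 0 calls of any kind without the ND, 1M, 2M or 4M libraries (limma; 1414, 1459, 2230 and 2742 at an unadjusted p under 0.05). Smad6 had 76.7, 58.9, 46.5 and 19.1 CPM in KO from ND to 4M, against 93.2, 65.2, 67.4 and 47.7 in Apoe.

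In the list of 26 genes often induced by TGF-beta, 25 were tested, of which 3 fell and 0 rose between genotypes (limma; 10 at an unadjusted p under 0.05, and 3 by limma-voom). Of all genes 0.13% fell, 0.0216% rose and 14.0% had an unadjusted p under 0.05. Its median effect was -0.23, against 0.01 over all genes tested, and 17 of the 25 effects were below 0. The 3 that fell were the elastic fibre genes Eln, Fbln5 and Lox, with effects of -2.74, -2.41 and -0.86. Eln, which encodes the core protein of elastic fibres, had 714, 574, 368 and 55.0 CPM in KO from ND to 4M, against 3436, 1899, 2362 and 1717 in Apoe. The highest KO library was below the lowest Apoe library (effect ± SE -2.74 ± 0.07, 4 diets; adjusted p = 0.0149, limma). The same order of levels was found for 6.91% of genes listed in all 8 libraries. Ccn2, a matricellular growth factor gene, had 676, 546, 217 and 581 CPM in KO from ND to 4M, against 2853, 1444, 757 and 1515 in Apoe. Its effect of -1.43 ± 0.20 (SE, 4 diets; adjusted p = 0.157, limma) missed the threshold. With the 1M libraries left out, or those of 2M, 0 genes of any kind passed between genotypes (limma; 844 and 701 at an unadjusted p under 0.05).

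Within KO, Col4a1, Eln, Lox, Postn and Spsb1 fell with months, and Thbs1, Timp1, Snai2 and Bhlhe40 rose (limma), against 15.7% and 6.8% of all genes. Snai2 was listed at 0 in KO 1M, Apoe 1M and Apoe 2M, so its slope rests partly on those listings. In the common slope Eln, Lox and Spsb1 fell, against 5.4% of all genes, and these calls too were lost without the ND, 1M, 2M or 4M libraries. Timp1, an inhibitor of matrix metalloproteinases, had 66.8, 71.4, 521 and 1443 CPM in KO from ND to 4M, against 37.6, 38.1, 127 and 333 in Apoe. As above, the slope in KO had no call without the ND, 1M or 4M libraries.

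**Figure D5:**
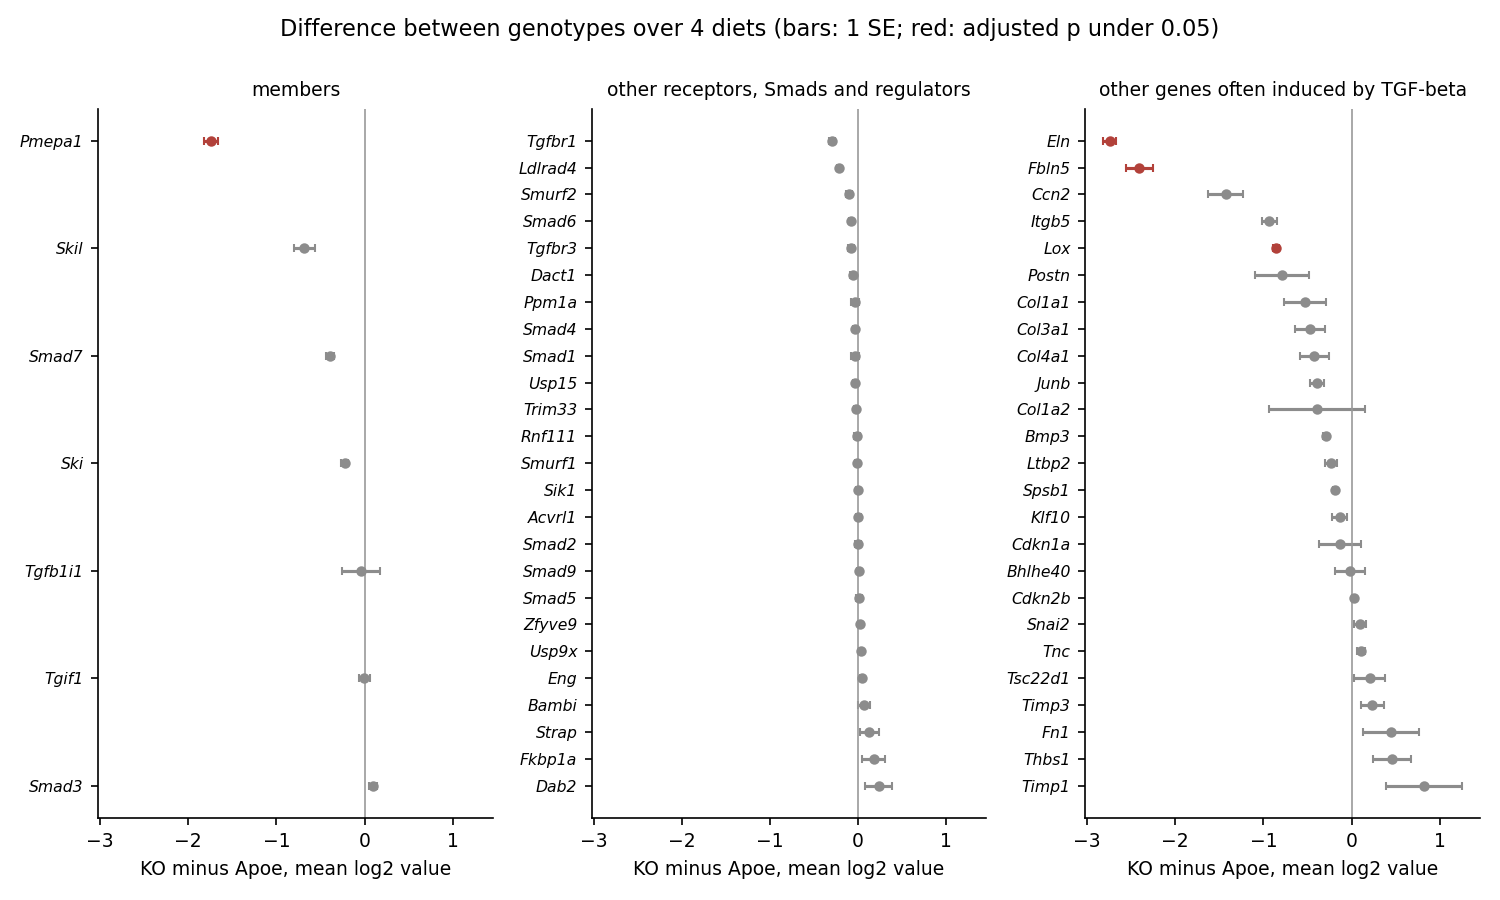
Difference of mean log2 values, KO minus Apoe over 4 diets (horizontal axes), for 7 of the 8 genes and the tested genes of both lists (vertical axes), with bars of 1 SE; red marks an adjusted p under 0.05. Pmepa1, Eln, Fbln5 and Lox are red, and no regulator is.

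Genes of tissue dissociation and stress, like the feedback inhibitors, had lower levels in KO. Their summed level over 17 genes was 10206, 11770 and 11495 CPM in KO on ND, 1M and 2M and 7229 in KO 4M, against 16011, 16502, 18256 and 14050 in Apoe. All 17 had an effect below 0 and 0 of them passed (limma, 0 by limma-voom). An unadjusted p under 0.05 was found for 9 of the 17, against 14.0% of all genes. Macrophage markers were listed for 5 of 8 genes in KO 1M, with a summed level of 401 CPM, for 1 or 2 in the other KO libraries, with 6.32 to 27.6 CPM, and for 0 in Apoe. Ptprc, Adgre1 and Csf1r were listed at 0 or not at all in all 8 libraries, and of 6 endothelial markers Pecam1 alone was listed. Fibroblast markers, 6 genes, summed to 101, 487, 3409 and 11920 CPM in KO from ND to 4M, against 90.3, 109, 158 and 3887 in Apoe. The part of these in the results above was not tested, except that the 36 cells with markers of other types were left out. The calls of the members over 4 diets were then the same, with Pmepa1 at 81.3 CPM in KO 1M. The log2 ratio of Skil at 1M became -1.03, past -1.

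By Pearson's r of mean log2 values over the 8 libraries, the genes most like Pmepa1 among those tested were Fbln5 (0.985), Olfr224 (0.982, listed in 4 libraries) and Ace (0.973). For Smad7 they were Pim1, Hspa2 and Stk17b (0.972 to 0.977), and for Skil Maco1, AA465934 (listed in 4 libraries) and Tcea3 (0.968 to 0.984). Those most like Ski were Pik3cb, Ago2 and Fam217b (0.985 to 0.996; Pik3cb and Fam217b listed in 6 libraries), and those most like Tgfb1i1 were Rasgrp2 (listed in 7), Unc45a and Anxa6 (0.995 to 0.997). For Smad3 they were Stk19, Col6a3 and Smap2 (0.9901 to 0.992), and for Tgif1 Ccdc86, Plaur and Thap4 (0.962 to 0.969). The 8 points share 4 diets and 2 genotypes, and each set of 3 was picked from 9253 genes.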

How the data were processed

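Per the file names, the authors deposited log2 values normalised by trimmed mean, each cell with its own scale. Tools named in the submitters' processing notes are STAR, UMI-tools, featureCounts and Subread 1.6.0, with the build GRCm38; no annotation release is named. Each library is in a table of its diet and in a time-course table of its genotype, scaled separately. Undoing the log2 gave whole multiples of a smallest value in each cell for 100% of entries (tolerance 0.01), taken as UMIs. Gene IDs were matched without version to GENCODE vM21.

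Cells were not used as replicates. A library's mean log2 value was fitted with limma 3.58.1 (R 4.3.3) for the 9253 genes with a UMI in 5% of cells or more, averaged over libraries. The genotype effect used diet tables with diet as a factor, and slopes used time-course tables. The p-values are two-sided, with a threshold of 0.05, and measure the spread of libraries around these models, with 1 library for each genotype and diet. The planned step to a common scale was taken as an alternative. The fits were tested on simulated data. Intervals are exact Poisson or binomial. No cell was removed and no doublet caller was run. Named genes are the 8 members and, of 2 lists, those past the threshold or the 3 largest in size; 1 gene of a list is not reported here. The members and lists were chosen with earlier results of these data known.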

Additional observations from a re-analysis of the deposited data

Results flagged for a closer look

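In 2 cases the highest or lowest of the 4 libraries of a genotype stood apart from the other 3 by Dixon's test. Chance alone flags about 1 in 20 groups, and the libraries of a genotype differ in diet. Pmepa1 had 631 CPM in Apoe 4M, the highest Apoe library, and Tgfb1i1 had 62.0 in KO 4M, the lowest KO library.

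For 2 genes the difference between KO and Apoe had opposite signs on different diets, each with a counting interval on 1 side of 0; this difference between diets was not tested. The log2 ratio of KO over Apoe for Tgfb1i1 was 0.23 on ND, 0.23 at 1M and 0.31 at 2M, and -2.04 at 4M. For Tgif1 it was -0.40 on ND and -0.68 at 2M, and 0.20 at 4M.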

How the results depend on the processing

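The count of genes past the threshold between genotypes, 14, was 5 on log2(CPM + 1), 9 with 0.1 added, 59 by limma-voom and 8 over genes listed in all 8 libraries, and 0 to 240 with libraries left out (0 without the 1M or 2M libraries, by limma, with 844 and 701 at an unadjusted p under 0.05; 240 without 4M). Without the block by diet it was 11, with Pmepa1 at an adjusted p of 0.000961 (limma). Leaving out 1 library gave the values of leaving out its diet. For the common slope, 514, it was 1 on log2(CPM + 1), 154 by voom, 0 by rank of time (2453 unadjusted), 0 with thinned cells (1949), 1346 on diet tables, and 0 to 352 with libraries left out. For the slope in KO, 2084, it was 87 by rank of time, 863 with thinned cells and 0 to 3060 with libraries left out. In Apoe it was 3 by voom and 0 to 1 with libraries left out, and for the difference of slopes 0 to 7. The genotype effect of Tgif1 reversed to 0.014 on time-course tables, and to 0.024 without the ND and 0.047 without the 2M libraries, with a lowest value of -0.073; that of Tgfb1i1 ran from -0.14 to 0.21 over libraries left out. Pmepa1, Smad7, Skil, Ski and Smad3 kept the sign of the genotype effect in every alternative run. Tables on a common scale, chosen after seeing the data, moved Tgfb1i1 past the threshold in the common slope (adjusted p = 0.0489, limma), as did diet tables for Tgfb1i1, Smad7 and Ski (0.0278, 0.0275 and 0.0457) and leaving out KO 4M for Tgfb1i1 (0.0371). Rank of time ended both calls in KO (0.0883 for Tgfb1i1, 0.0580 for Ski). Values exactly as deposited are the ones reported. Thinning lowered all 57 shares of cells, 51 of 56 single-diet ratios stayed within their counting intervals, and all 44 class levels did.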

Other observations

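The few KO cells with 5 or more Pmepa1 UMIs, chosen on that count after the data were seen, were described with no test. They were 12, 37, 35 and 15 cells of KO ND, 1M, 2M and 4M. Eln had 9523, 8511, 6208 and 2395 CPM in these cells from ND to 4M, against 577, 216, 225 and 27.0 in the remaining KO cells. Fbln5 had 718, 1823, 1960.4 and 699 in these cells, against 52.2, 68.5, 136 and 89.8 in the remaining ones. Acta2 was lower in them on ND, 1M and 2M (10864, 7323 and 5284, against 24826, 24146 and 21879) and higher at 4M (1376 against 795). All 9 contractile genes were lower in these cells on ND, 1M and 2M. At 4M the list was mixed, with 5 of the 9 higher and 4 lower. In Apoe cells split at the same count, all 9 were lower on ND, 2M and 4M, and 7 were lower and 2 higher at 1M. The median ratio of the 9 was 0.498, 0.327, 0.234 and 1.26 in KO from ND to 4M, and 0.877, 0.934, 0.870 and 0.882 in Apoe. Over the listed genes of those often induced by TGF-beta (24 or 25 in a library) the median ratio was 2.05, 3.56, 2.73 and 1.62 in KO, and 1.10, 1.123, 1.16 and 1.26 for the same split of Apoe cells from ND to 4M.

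The fibroblast markers of the list summed to 723, 5110, 5366 and 7809 CPM in these cells of KO from ND to 4M, against 91.7, 278, 3361 and 11969 in the remaining cells. The selected cells were deeper than the rest, with a median of 15412, 11290, 11240 and 14121 UMIs from ND to 4M, against 10350, 8838, 7584.5 and 10969.5. Neither the depth nor the other cell types were tested as a source of these values.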
